A study of Mus musculus with 6 samples.

Results

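Eicosanoid synthesis enzymes turn arachidonic acid into prostaglandins, thromboxane and leukotrienes. The 9 genes described here, Hpgds, Ptgs1, Ptgs2, Ptges, Tbxas1, Alox5, Alox5ap, Lta4h and Ltc4s, were found by symbol in the array's probe annotation. They were chosen with earlier results of these data known. Probe sets naming a single gene were found for 7 of the 9, among 12393 genes measured in all. Ptgs1 and Alox5 had no such probe set and were not analysed here.

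The samples were 6 Affymetrix arrays of total RNA from CD11c+ conventional dendritic cells (DCs, the antigen-presenting cells that prime T cells) of BALB/c mice, an inbred strain. Cells were sorted by flow cytometry from spleen or from lymph nodes, with 3 arrays for each organ, and the labels name no treatment, age or allele. Whether each array came from its own animal or from a pool is not given, so the tests measure the spread between arrays only. Array medians were 39.4 to 41.3 intensity units, and precision is limited by there being 3 arrays a group.

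The DC identity of the samples was visible in Itgax, the CD11c gene, at 1845.0 to 2006.3 intensity units in the lymph node arrays and 856.1 to 1151.7 in the spleen arrays. The labels of organ were harder to match. Ccr7, the receptor that takes DCs into lymph nodes, and Ccl22, a chemokine of mature migratory DCs, were both higher in the arrays labelled spleen, by log2 1.47 and 4.97 (limma adjusted p = 0.0496 and 7.93e-05). "Spleen" and "lymph node" below therefore mean the arrays so labelled, and differences are spleen minus lymph node. Of all genes, 3.4% passed an adjusted p of 0.05 (limma, Benjamini-Hochberg over 12393 genes), with 1.37% higher in lymph node arrays and 2.03% higher in spleen arrays.

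The pathway begins when phospholipases free arachidonic acid from membranes. The cyclooxygenases, encoded by Ptgs1 and the inducible Ptgs2, make the prostaglandin precursor from which end enzymes form single products. Hematopoietic prostaglandin D synthase (Hpgds), a glutathione-dependent enzyme, makes prostaglandin D. Microsomal prostaglandin E synthase (Ptges) makes prostaglandin E, and thromboxane synthase (Tbxas1) makes thromboxane. In the other branch, 5-lipoxygenase (Alox5) works with its activating protein (Alox5ap) to make an unstable leukotriene, which Lta4h hydrolyses to leukotriene B and Ltc4s joins to glutathione to give the cysteinyl leukotrienes. In DCs these lipids are known to affect migration and the type of T cell response.

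Upstream sequences are given for 4 members. They are those of Hpgds, the one member past the threshold, of Lta4h and Ltc4s, which were lower in the same arrays without passing it, and of Ptgs2, which varied most between arrays. Each is the 250 bases before the annotated start in RefSeq (GRCm38.p6), 5′ to 3′ on the gene's strand. They lie at chr6:65144731-65144980 (minus strand), chr10:93453146-93453395 (plus), chr11:50238533-50238782 (minus) and chr1:150099781-150100030 (plus). Capitals mark GAGGAA, or TTCCTC where it lies on the opposite strand, a form of the site bound by the myeloid factor PU.1. Other forms of that site were not searched.
Hpgds: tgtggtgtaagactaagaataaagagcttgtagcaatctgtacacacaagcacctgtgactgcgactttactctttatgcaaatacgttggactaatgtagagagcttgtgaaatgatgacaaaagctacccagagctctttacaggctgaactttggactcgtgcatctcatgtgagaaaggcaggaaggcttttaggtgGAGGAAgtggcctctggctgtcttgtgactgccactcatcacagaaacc
Lta4h: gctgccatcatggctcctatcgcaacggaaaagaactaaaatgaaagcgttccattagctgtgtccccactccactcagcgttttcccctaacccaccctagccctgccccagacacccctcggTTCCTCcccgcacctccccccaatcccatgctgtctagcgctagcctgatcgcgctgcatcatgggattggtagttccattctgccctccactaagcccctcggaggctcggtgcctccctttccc
Ltc4s: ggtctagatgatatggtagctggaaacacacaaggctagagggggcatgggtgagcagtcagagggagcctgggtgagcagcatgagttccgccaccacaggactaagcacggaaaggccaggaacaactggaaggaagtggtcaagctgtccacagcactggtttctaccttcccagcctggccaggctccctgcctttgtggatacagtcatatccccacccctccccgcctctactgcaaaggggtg
Ptgs2: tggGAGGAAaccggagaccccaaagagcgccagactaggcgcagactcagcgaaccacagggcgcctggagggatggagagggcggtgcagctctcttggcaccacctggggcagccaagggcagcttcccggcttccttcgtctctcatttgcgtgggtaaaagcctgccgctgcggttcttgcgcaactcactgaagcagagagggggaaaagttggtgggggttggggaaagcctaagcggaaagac

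Promoter windows were found for 8 of the 9 genes, Ptgs1 and Alox5 included, and 7 of the 8 held GAGGAA on either strand, all but Ltc4s. Among 32851 windows of the same length for all genes the share was 23.3%, and among the 12566 windows of the genes tested it was 22.8%. The match began 49 bases before the start in Hpgds, 126 in Lta4h and 247 in Ptgs2, and 19 and 24 bases before it in Tbxas1 and Ptgs1. This was 1 of 9 motifs searched on both strands. The E-box CANNTG was found in 5 of the 8 (66.2% of all windows). The TATA box TATAAA was found in 1, Tbxas1 (12.4%), as was the AP-1 motif TGANTCA (6.75%). The motif CCAAT was found in 1, Lta4h (33.8%). The palindromic E-box CACGTG, a special case of CANNTG, was found in 0 of the 8 (6.02% of all windows). The cyclic AMP response element core TGACGT was likewise found in 0 (6.47%), as were the GATA motif AGATAA (9.99%) and an NF-kB-like palindrome (10.3%). A match describes the letters in the window and says nothing about binding, and the members were not tested as a set.

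Hpgds was the member that differed most between the groups. Its intensity was 356.5, 216.4 and 277 in lymph node arrays 1, 2 and 3, and 76.4, 104.5 and 72.4 in spleen arrays 1, 2 and 3. Every lymph node array lay above every spleen array, as was so for 12.7% of all genes. The lowest lymph node value of Hpgds was still well clear of its highest spleen value. On the log2 scale Hpgds was 8.12 ± 0.36 (SD, n = 3) in lymph node arrays against 6.38 ± 0.29 (SD, n = 3) in spleen arrays. The difference of -1.74 ± 0.24 (SE, 95% interval -2.29 to -1.19) made Hpgds 3.33-fold higher in lymph node arrays (limma adjusted p = 0.0128). Among the 170 genes past the threshold and higher in lymph node arrays it ranked 25 by size of the difference. In these bulk samples fewer cells expressing a gene and less of its RNA per cell cannot be told apart.

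The Hpgds result was past the threshold in 4 of the 6 fits that left out 1 array. Its adjusted p was 0.0678 without lymph node array 1 and 0.0559 without spleen array 1, with differences of -1.55 and -1.67. Without both arrays numbered 3 the adjusted p was 0.0522. The difference itself lay between -1.92 and -1.55 in every alternative fit run.

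**Figure D1:**
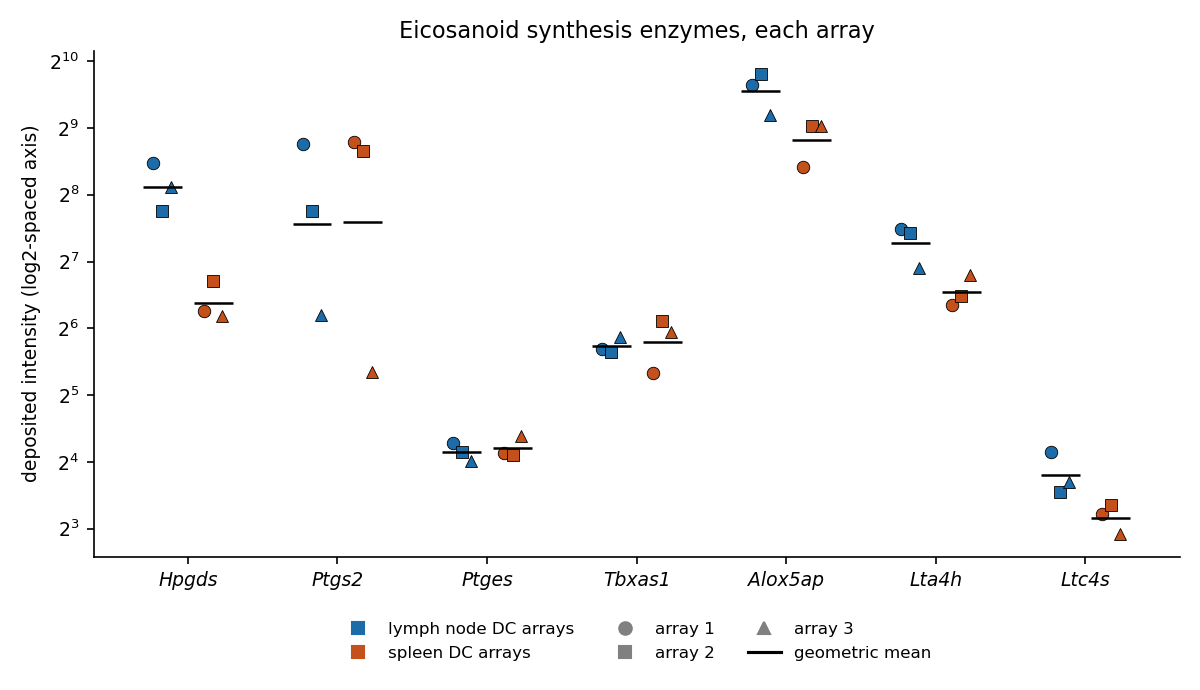
Deposited intensity (log2-spaced axis) of the 7 measured enzymes on each of the 6 arrays, with marker shape giving the array number and bars the geometric mean of 3 arrays. Hpgds separates the lymph node arrays (216.4 to 356.5) from the spleen arrays (72.4 to 104.5), while Ptgs2 is lowest on array 3 of both groups.

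Cell types other than DCs that are rich in eicosanoid enzymes were followed through marker lists. Mast cells, a classical source of prostaglandin D, had their 3 defining markers Cpa3, Tpsb2 and Cma1 at 5.3 to 13.2 intensity units on all 6 arrays, near the bottom of the scale, whose lowest value was 2.1. Of the 10 measured mast cell markers 0 passed limma, where 3.4% of all genes did. For 2 of the 10 the lymph node arrays were higher without overlap, and 24.5% of all genes did not overlap. The same 2 had an unadjusted p under 0.05 (limma), against 19% of all genes. The summed intensity of the 10 was 554.6 to 610.5 in lymph node arrays and 270.5 to 454.3 in spleen arrays. Most of that sum was Kit, the stem cell factor receptor, at 453.9 to 500.3 and 172.5 to 368.2 (difference -1.01, adjusted p = 0.0953). The basophil protease gene Mcpt8 was at 5.8 to 8.8, and the eosinophil genes Epx and Prg2 at 3.7 to 12.5, on all arrays. Of the platelet genes, Pf4 was at 4.7 to 6.5 and Itga2b at 12.0 to 22.6 on all arrays. Gp9 was at 47.9 to 50.5 in lymph node arrays and 27.6 to 38.6 in spleen arrays (-0.56, limma adjusted p = 0.130). Of the 8 measured platelet markers 0 passed, and 1, Gp9, did not overlap.

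Conventional DC markers summed to 17595 to 18265 in lymph node arrays and 10714 to 14665 in spleen arrays. Of these markers 1 of 9, Itgax, passed, where 3.4% of all genes did. For 8 of the 9 the lymph node arrays were higher without overlap, and 24.5% of all genes did not overlap. An unadjusted p under 0.05 (limma) was found for 5 of the 9, against 19% of all genes. The other defining DC genes, the growth factor receptor gene Flt3 (-0.54, adjusted p = 0.307) and the transcription factor gene Zbtb46 (-0.34, adjusted p = 0.340), did not. Migratory DC markers summed to 6436.9 to 9124.7 in spleen arrays and 2715.8 to 3696.3 in lymph node arrays. Of the 10, 7 passed, all higher in spleen arrays, among them Ccr7, Ccl22 and the actin-bundling gene Fscn1 (1.82, limma adjusted p = 0.00946). An unadjusted p under 0.05 (limma) was found for 8 of the 10. Plasmacytoid DC markers summed to 1325.9 to 4453.3 in spleen arrays and 497.4 to 1047.6 in lymph node arrays. Of the 8, 3 passed, all higher in spleen arrays, and 6 had an unadjusted p under 0.05 (limma). Of its defining genes Ccr9 passed (2.79, adjusted p = 0.0385), while the transcription factor gene Tcf4 overlapped between the groups (1.39, adjusted p = 0.186).

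Lists of other cells gave mixed or few calls, where 3.4% of all genes passed. Macrophage markers summed to 828.5 to 1137.9 in lymph node arrays and 549.3 to 719.4 in spleen arrays, but the 1 of 12 that passed, the scavenger receptor gene Marco, was higher in spleen arrays (2.09, adjusted p = 0.0310). The defining genes Adgre1 (-1.17, adjusted p = 0.174), C1qa (-0.48, 0.496) and Cd5l (-0.56, 0.691) did not pass. Neutrophil markers summed to 202.4 to 749.7 in lymph node arrays and 90.5 to 157.9 in spleen arrays. The 1 of 9 that passed, the granule gene Camp, was higher in lymph node arrays (-1.37, limma adjusted p = 0.0425). Its defining genes S100a8 (-2.63, adjusted p = 0.0569), Ngp (adjusted p = 0.0843) and Ltf (-0.54, 0.378) did not pass. S100a9 made up most of the neutrophil sum in lymph node arrays, at 106.2, 453.9 and 587.6. It was at 72.3, 15.6 and 19.6 in spleen arrays. The S100a9 difference of -3.44 (limma adjusted p = 0.0536) was the largest toward lymph node arrays of all genes tested, yet did not pass. T cell markers summed to 1038.3 to 2498.0 in spleen arrays and 213.9 to 591.7 in lymph node arrays. Most of that sum in spleen arrays was the cytokine receptor gene Il7r at 810.4 to 1912.4, one of the 2 of 6 that passed, with Cd28. The defining T cell genes Cd3e (adjusted p = 0.581) and Cd3g (0.317) overlapped between the groups. Of the B cell and NK cell lists 0 of 5 and 0 of 6 passed limma. An unadjusted p under 0.05 was found for 1 and 0 of them, against 19% of all genes. Their defining genes Cd79a (-0.13), Ms4a1 (0.29) and Ncr1 (0.47) overlapped. For the other lists of this paragraph an unadjusted p under 0.05 (limma) was found for 4 of 9 neutrophil, 3 of 12 macrophage and 2 of 6 T cell markers. Those 4 neutrophil markers were all higher in lymph node arrays, without overlap. The bacterial poly-A control probe sets, which report on sample preparation, averaged log2 8.08 in spleen arrays and 7.10 in lymph node arrays without overlap (exact permutation p = 0.1, two-sided, the smallest that 3 against 3 allows). The part of these markers and controls in the enzyme differences was not tested.

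Ptgs2, the inducible cyclooxygenase, showed the widest spread. Its intensity was 431.9, 215.2 and 73.6 in lymph node arrays 1, 2 and 3 and 441.4, 404.8 and 40.6 in spleen arrays 1, 2 and 3. The groups overlapped throughout, and in both of them array 3 was the lowest. The highest array exceeded the lowest 5.87-fold among lymph node arrays and 10.9-fold among spleen arrays. The within-group SD of Ptgs2, 1.65 on the log2 scale, was at the 99.9th percentile of all genes. The difference between organs was 0.03 ± 0.98 (SE, adjusted p = 0.993), with a 95% interval from -2.25 to 2.30. This fit, which takes no account of array number, therefore leaves room for a difference of several fold in either direction. With array number as a block in the fit, the Ptgs2 difference was 0.03 ± 0.33 (SE, limma adjusted p = 0.975). The labels do not say what a number shares. The other Ptgs2 probe set showed the same order, at 245.8, 144.5 and 57.7 in lymph node arrays and 340.9, 239.3 and 15.5 in spleen arrays.

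Ptgs2 is an immediate early gene, one of the genes switched on within minutes to hours of a stimulus. A list of 21 other immediate early genes was drawn up after these values were seen. Of the 21, 19 were lowest on array 3 in both groups, as were 12.7% of all genes. The exceptions were Egr3 and Ier5. The transcription factor gene Fos was at 2475.8, 2127.1 and 562.1 in lymph node arrays and 2214.2, 2739.0 and 830.2 in spleen arrays, and Atf3 at 3409.4, 2455.1 and 612.8 and at 1245.9, 2273.9 and 197.6. Both dropped on array 3 as Ptgs2 did. The median deviation of the 21 genes from their group mean was -0.71 on lymph node array 3 and -0.88 on spleen array 3. Between organs 0 of the 21 passed limma, with 7 at an unadjusted p under 0.05, against 19% of all genes.

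**Figure D2:**
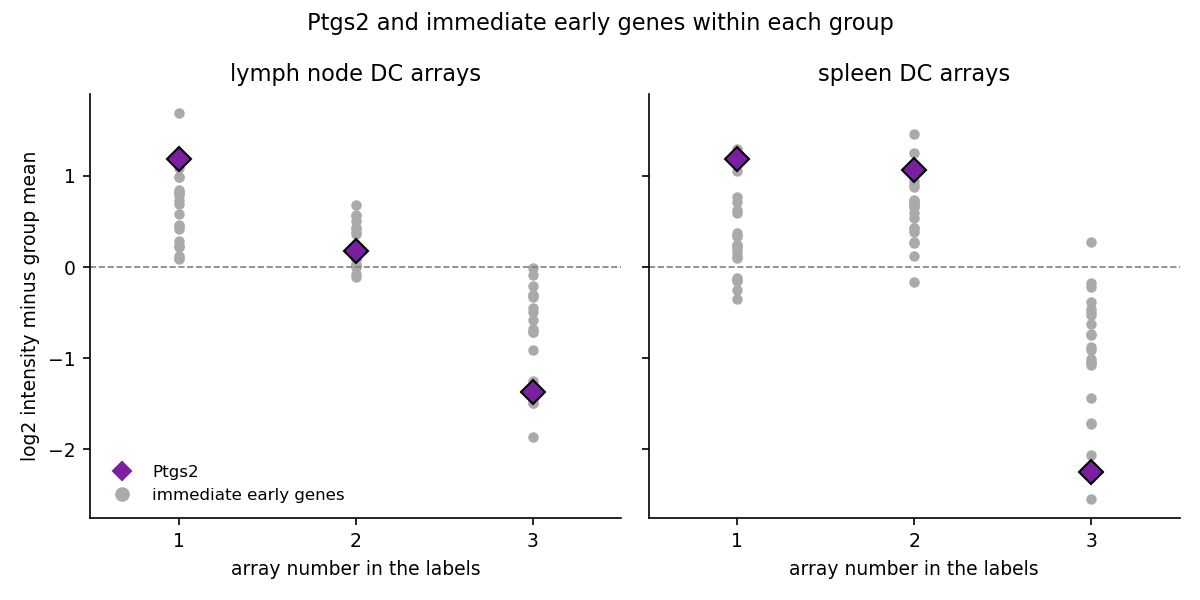
Log2 intensity minus the mean of the gene's own group for Ptgs2 (diamonds) and 21 immediate early genes (grey dots) on arrays 1, 2 and 3 of each group. Ptgs2 lies at -1.37 on lymph node array 3 and at -2.25 on spleen array 3, and most immediate early genes are also lowest there.

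The end enzymes for prostaglandin E and thromboxane gave nearly equal values in both groups. Ptges was at 19.5, 17.7 and 16.2 in lymph node arrays and 17.5, 17.1 and 20.9 in spleen arrays, so the groups overlapped. Its difference was 0.05 ± 0.16 (SE, 95% interval -0.33 to 0.44, adjusted p = 0.906). Both of its probe sets were low on a scale whose lowest value was 2.1, the other one at 4.9 to 10.1. Tbxas1 was at 51.4, 50 and 58.4 in lymph node arrays and 40.1, 68.8 and 61.6 in spleen arrays. The spleen values of Tbxas1 enclosed all the lymph node values. The Tbxas1 difference was 0.06 ± 0.23 (SE, 95% interval -0.47 to 0.59, adjusted p = 0.924).

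The leukotriene enzymes measured had values that did not overlap between the groups, but none of them passed the test. Of all genes 24.5% did not overlap, 12.7% with the lymph node arrays higher. Alox5ap, the membrane protein that presents arachidonic acid to 5-lipoxygenase, was at 798.5, 898.3 and 587.7 in lymph node arrays and 342.5, 522.1 and 522 in spleen arrays. Array 3 of the lymph node group came close to the upper spleen arrays. The Alox5ap difference was -0.73 ± 0.24 (SE, 95% interval -1.29 to -0.16, adjusted p = 0.155), with log2 means of 9.55 ± 0.32 and 8.83 ± 0.35 (SD, n = 3 each). Its adjusted p lay between 0.0810 and 0.43 in all alternatives.

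Lta4h, the hydrolase that makes leukotriene B, was at 179.7, 171.3 and 120.1 in lymph node arrays and 81.4, 89.1 and 111.7 in spleen arrays. The arrays numbered 3 lay closest together. The Lta4h difference was -0.73 ± 0.22 (SE, 95% interval -1.23 to -0.23, adjusted p = 0.115). A further probe set gave 94.7, 86.8 and 121.6 against 53.4, 35.7 and 76.3, a difference of -0.93 (adjusted p = 0.143 over all probe sets). The last probe set of the gene was near the bottom of the scale, at 4.4 to 6.4, with a difference of -0.18. Lta4h passed the threshold in 2 alternatives, with array weights (adjusted p = 0.0480) and without both arrays numbered 3 (-1.04, adjusted p = 0.0404).

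Ltc4s, the synthase of the cysteinyl leukotrienes, was at 17.8, 11.7 and 13 in lymph node arrays and 9.3, 10.2 and 7.6 in spleen arrays. These values, from its single probe set, were low on the scale. The groups did not overlap, yet the nearest arrays differed by only 11.7 against 10.2. The Ltc4s difference was -0.64 ± 0.21 (SE, 95% interval -1.13 to -0.14, adjusted p = 0.156).

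Over the 7 measured members, 1 was higher in lymph node arrays past the threshold, 0 were higher in spleen arrays and 6 did not pass. The groups did not overlap for 4 of the 7, all higher in lymph node arrays, against 24.5% of all genes without overlap, 12.7% with the lymph node arrays higher and 11.8% with the spleen arrays higher. An unadjusted p under 0.05 was found for the same 4, against 19% of all genes, and 9.75% with the lymph node arrays higher. The median difference of the members was -0.64 and that of all genes was -0.0053. The members were chosen with earlier results of these data known, so these shares and medians describe them only. Whether they differ from other genes as a set was not tested.

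**Figure D3:**
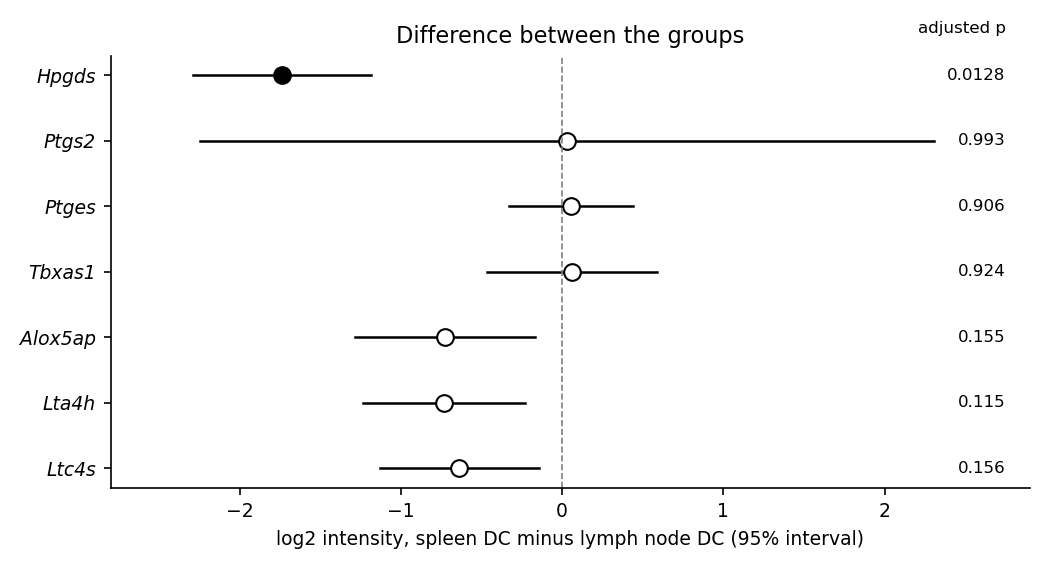
Log2 intensity difference (spleen minus lymph node) of the 7 measured enzymes with the 95% interval from limma and the adjusted p over 12393 genes. The filled point marks Hpgds (-1.74, adjusted p = 0.0128), the intervals of Alox5ap, Lta4h and Ltc4s lie below 0 without passing after adjustment, and that of Ptgs2 spans -2.25 to 2.30.

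The rest of the pathway was read from lists of 80 further genes, of which 67 were measured. Of the 67, 2 passed as higher in lymph node arrays and 1 as higher in spleen arrays (3.4% of all genes passed in either direction). The median difference of the 67 was 0.07. The part upstream of the enzymes, arachidonate release, had 0 of 17 genes past the threshold. An unadjusted p under 0.05 (limma) was found for 4 of them, against 19% of all genes. The diacylglycerol lipase gene Daglb was at 200.6, 193.6 and 168.0 in lymph node arrays and 102.7, 130.5 and 77.3 in spleen arrays (-0.88 ± 0.22 SE, adjusted p = 0.0729). The phospholipase gene Pla2g4f was at 19.8, 35.7 and 52.1 against 130.4, 75.7 and 64.4 (1.37 ± 0.39 SE, adjusted p = 0.108). Neither group pair overlapped, as was so for 24.5% of all genes, and the differences ran in opposite directions.

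Among other prostaglandin and thromboxane enzymes 0 of 11 passed (4 at an unadjusted p under 0.05, limma, against 19% of all genes). Cbr1, a carbonyl reductase that can act on prostaglandins, was at 24.8, 23.7 and 23.5 in lymph node arrays and 39.5, 34.1 and 45.3 in spleen arrays (0.71 ± 0.17 SE, adjusted p = 0.0616). The glutathione transferase gene Gstm2 was at 22.6, 16.1 and 14.8 against 55.2, 24.8 and 27.4 (0.93 ± 0.33 SE, adjusted p = 0.172).

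Downstream of Ltc4s, Ggt5, the glutamyl transferase that trims the glutathione of leukotriene C, was higher in lymph node arrays. Ggt5 was the one of 14 other lipoxygenase and leukotriene enzymes past the threshold, at 74.8, 102.5 and 71.0 in lymph node arrays against 22.9, 36.0 and 24.4 in spleen arrays. The groups stood well apart, with a 3.00-fold difference (-1.59 ± 0.24 SE, adjusted p = 0.0183). The call on Ggt5 depended on single arrays: its adjusted p was 0.0815 when lymph node array 1 was dropped, 0.0887 when lymph node array 2 was, and 0.0643 when spleen array 1 was.

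Of 11 measured genes of breakdown and transport, 1 passed as higher in lymph node arrays and 1 as higher in spleen arrays. Cyp4f16, of the cytochrome P450 family whose members oxidise leukotriene B and other fatty acids, was at 3376.4, 3505.6 and 3978.7 in lymph node arrays and 947.3, 1189.5 and 1181.1 in spleen arrays. It was 3.28-fold higher in lymph node arrays (-1.71 ± 0.17 SE, adjusted p = 0.00550) and kept its call in all 16 alternatives. Abcc1, the transporter that exports leukotriene C, was at 135.6, 129.2 and 176.7 in lymph node arrays and 316.7, 278.2 and 264.9 in spleen arrays. Abcc1 was 1.96-fold higher in spleen arrays (0.97 ± 0.18 SE, adjusted p = 0.0351). Dropping array 1 or 2 of either organ ended that call, with adjusted p of 0.161 and 0.153 for the lymph node arrays and 0.101 and 0.0642 for the spleen arrays. So did taking the mean of all its probe sets (0.60, adjusted p = 0.0947).

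Of 14 measured eicosanoid receptors 0 passed the threshold (3 at an unadjusted p under 0.05, limma, against 19% of all genes). Ptger3, a receptor for prostaglandin E, was at 484.0, 318.7 and 189.4 in lymph node arrays and 129.1, 84.4 and 38.9 in spleen arrays. Array 3 was again the lowest of each group, and the groups did not overlap, as was so for 24.5% of all genes. The Ptger3 difference was -2.04 ± 0.48 (SE, adjusted p = 0.0650), with an adjusted p of 0.0367 without both arrays numbered 3 and 0.00901 with the mean of all its probe sets. Ptger2, another receptor for prostaglandin E, was at 5.2, 16.5 and 18.0 in lymph node arrays against 33.8, 38.7 and 38.8 in spleen arrays (1.68 ± 0.44 SE, adjusted p = 0.0855). Its lymph node values were low on the scale. The Ptger2 difference was 1.10 without lymph node array 1 and 0.89 with 16 added before the log.

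**Figure D4:**
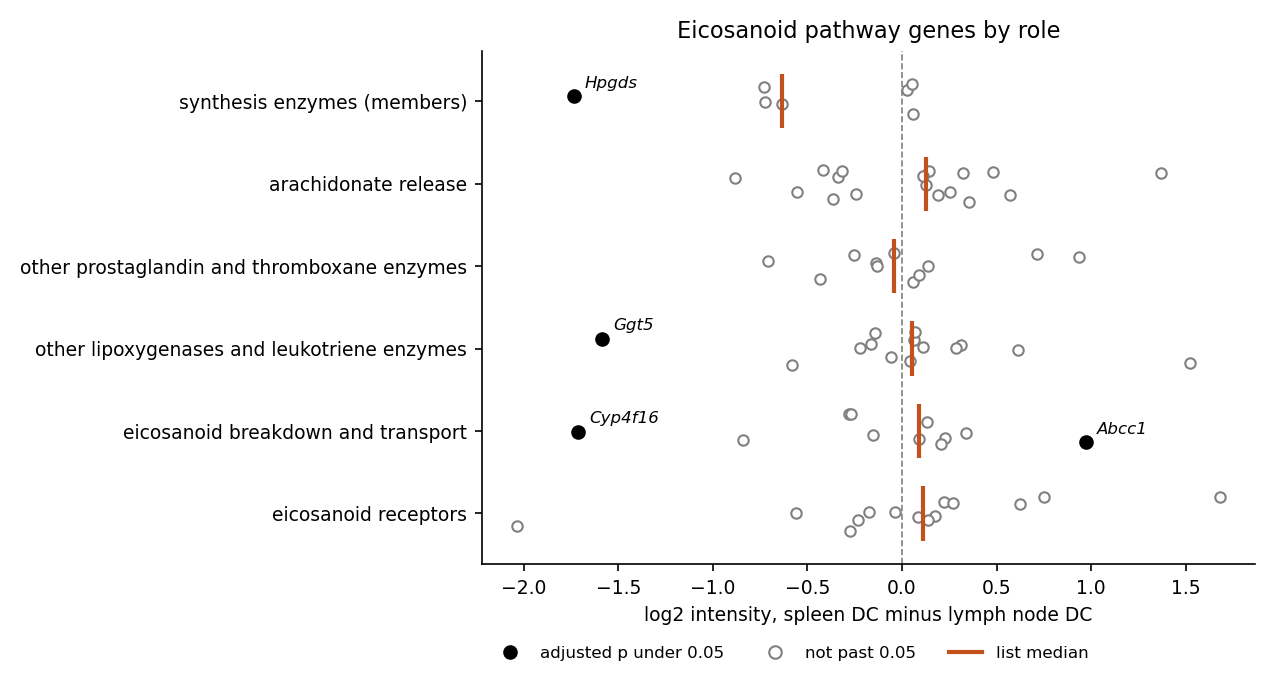
Log2 intensity difference (spleen minus lymph node) of the 7 measured synthesis enzymes and 67 further pathway genes grouped by role, with list medians as vertical bars. Filled points passed an adjusted p of 0.05 and are named: Hpgds, Ggt5 and Cyp4f16 lie to the left (higher in lymph node arrays) and Abcc1 to the right.

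The genes whose profile lay nearest to that of Hpgds were found by the Euclidean distance between log2 values centred on each gene's mean over the 6 arrays. They were Dab2ip (0.37), a regulator of Ras signalling, the interferon-induced gene Oas2 (0.44), the ABC transporter gene Abcg3 (0.44), Bbs9 (0.51), of the ciliary BBSome, and the lectin gene Itln1 (0.57). Dab2ip was at 596.7, 504.5 and 559.5 in lymph node arrays and 134.5, 196.9 and 142.2 in spleen arrays. Like Hpgds, Dab2ip had its highest spleen value on array 2 and its highest lymph node value on array 1. Choosing genes by distance over these same 6 arrays favours such a match. The distance reflects the organ difference and the spread within groups together, and says nothing of a shared function or control.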

How the data were processed

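Groups came from the sample titles. The labels' protocols describe RNA extraction with 20 ng of carrier RNA, an integrity number above 8.4, and amplification of 2 ng into labelled cDNA. The authors deposited probe set intensity on a linear scale. The submitters' processing notes name RMA and limma without versions. RMA as usually run gives log2 values, so how these linear values were obtained, and with what floor or scaling, is unknown.

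Of 22690 probe sets (64 controls), 20393 had 1 gene symbol in the array annotation, 691 several and 1606 none. Each of 12393 genes was taken by its one-symbol probe set with the highest mean over 6 arrays. The test on log2 values was limma 3.58.1 under R 4.3.3 (a linear model with moderated variances, two-sided, Benjamini-Hochberg over all genes, threshold 0.05, no filter on level). Folds are ratios of geometric means.

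The members, lists and tests were chosen with earlier results of these data known. Named genes were all members, in each pathway list those past the threshold or otherwise the 2 with the smallest adjusted p, the defining markers, Itgax, Ccr7 and Ccl22, and the 5 nearest to Hpgds. Fos, Atf3, Egr3, Ier5, Kit, Marco, Camp, S100a9, Il7r and Cd28 were named after their values were seen. Alternatives changed the scaling (median centring or quantile normalization again), the filter on level, the log offset (16), the variance model, the weights of arrays, the replicate block, the arrays used, the choice of probe sets, the threshold (0.01) and the minimum fold (2).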

Additional observations from a re-analysis of the deposited data

How the results depend on the processing

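Hpgds kept its direction in all 16 alternatives and its call in 13. The number of genes past the threshold (421) was 764 with array weights, 63 at a threshold of 0.01 and 47 to 475 with 1 array left out (56 without lymph node array 1, 47 without lymph node array 2, 130 without spleen array 1). The number of members past it (1) was 2 with array weights, 0 at 0.01 (limma; 4 had an unadjusted p under 0.05) and 0 to 1 with 1 array left out. The number of other pathway genes (3) was 5 with the filter at the median level, 7 with array weights, 5 without both arrays numbered 3, 1 at 0.01 and 1 to 5 with 1 array left out (1 without lymph node array 1 or 2 or spleen array 1, 5 without spleen array 3). The filter tested 16 of the 67 pathway genes and gave no value for Ptges and Ltc4s, and Ltc4s had no probe set left when those with suffixes were left out. The members that did not pass and lay near 0 changed sign. Ptges was -0.026 with array weights, -0.10 without both arrays numbered 3 and -0.037 to 0.12 with 1 array left out. Ptgs2 was -0.10 with the mean of its probe sets, -0.23 by its other probe set and -0.66 to 1.155 with 1 array left out. Tbxas1 was -0.10 to 0.29 with 1 array left out. The cause was not tested.

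The labels number the arrays 1 to 3 in both groups, but deviations of same-numbered arrays correlated at 0.0218, 0.242 and 0.158 across genes, and spleen arrays 2 and 3 correlated best with their own number but spleen array 1 with lymph node array 3. The labels do not say what a number shares, and these correlations did not reach 0.1 for every pair, so the arrays were not treated as paired. With the replicate block 519 genes, 1 member and 4 other pathway genes passed, with adjusted p = 0.0233 for Hpgds, 0.0536 for Abcc1 and 0.00738 for Ptger3. Ltc4s and Ptges lay close to the bottom of the intensity scale, which limits what their differences can show.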
